A study of Mus musculus with 2 samples.

Results

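The 9 genes described here carry iron into cells, store it, let it out and set those steps: Trf, Tfrc and Slc11a2 (uptake), Fth1 and Ftl1 (storage), Slc40a1 and Cp (export), and Aco1 and Ireb2 (control). They were chosen by name, with no measured value in the rule, though earlier results of these data were known. All 9 of 9 were found among the 43346 Ensembl genes of the deposited tables. The samples were 2 libraries of 1 group, replicates 1 and 2 of newborn hindbrain (postnatal day 0), from mice of strain B6NTac;B6NCrl/Lap, males and females pooled and with no treatment named. Replicate 1 was a pool of 15 mice and the size of the pool for replicate 2 is not given. Total RNA over 200 nt had its ribosomal RNA removed and was read as stranded pairs. The libraries held 54313140 (replicate 1) and 77142270 (replicate 2) expected counts, that is, estimated fragments per gene. The labels call them independent isolates but give both the same donor identifier, and their spread may therefore be technical in part. With 1 group of 2 libraries there is no contrast to test, and an exact sign-flip test could not go below p = 0.5, so the values below are descriptions.

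Iron travels in blood bound to transferrin, enters cells through the transferrin receptor, crosses the endosomal membrane through a divalent metal transporter and is either used, stored in ferritin or released through ferroportin. Cells adjust these steps after transcription. When iron is scarce, the iron regulatory proteins bind a hairpin in the messenger RNA, the iron-responsive element, which blocks translation when it lies in the 5′ UTR and protects the message from decay when it lies in the 3′ UTR. In brain, transferrin is known mainly from oligodendrocytes and choroid plexus, and ceruloplasmin from astrocytes.

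The hairpins are shown first, because the transcripts that carry them are followed through the results. Annotated transcripts of GENCODE M21 (mm10) were searched on their own strand for an unpaired C, 5 bases, the loop CAGTGN and 5 bases, with all 5 upper-stem bases paired (G with T allowed) and at least 3 of 5 lower-stem bases paired. A match was present in 263 of 141767 annotated transcripts (0.186%), and among the 9 genes in transcripts of Fth1, Ftl1, Slc40a1 and Tfrc. Capitals mark the unpaired C and the 6-base loop CAGTGN, and each run of 30 bases is written 5′ to 3′ on the transcript strand.
Fth1, 5′ UTR, chr19:9982732-9982761 (+): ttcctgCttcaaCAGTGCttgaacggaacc
Ftl1, 5′ UTR, chr7:45459778-45459807 (-): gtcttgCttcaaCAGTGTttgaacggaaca
Slc40a1, 5′ UTR, chr1:45925464-45925493 (-): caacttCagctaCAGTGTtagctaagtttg
Tfrc, 3′ UTR, chr16:32631219-32631248 (+): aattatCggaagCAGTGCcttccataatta
Tfrc, 3′ UTR, chr16:32631598-32631627 (+): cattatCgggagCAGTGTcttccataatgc
Tfrc, 3′ UTR, chr16:32631663-32631692 (+): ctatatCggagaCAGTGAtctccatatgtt
Tfrc, 3′ UTR, chr16:32631710-32631739 (+): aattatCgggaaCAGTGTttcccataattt

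The sites of the ferritin genes Fth1 and Ftl1 shared 26 of 30 bases. Those of Tfrc shared 18 to 25 of 30 bases with each other, and all remaining pairs of sites shared 9 to 16. The unpaired C and the loop bases CAGTG were required by the search, so they count as shared in every pair. The loop began at nt 99 of Fth1-201, nt 90 of Ftl1-201 and nt 102 of Slc40a1-201, ahead of coding sequences that start at nt 225, 254 and 320. In Tfrc-201 the 4 sites lay within 521 nt (nt 3315 to 3835), past the end of the coding sequence at nt 2429. No transcript of Trf, Slc11a2, Cp, Aco1 or Ireb2 matched, also when 4 upper-stem pairs were enough. That says only that no hairpin of this fixed shape was found. The search allowed no bulged base within the upper stem, so an iron-responsive element of another shape would be missed. A match is a description of the sequence, and binding was not measured.

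**Figure D1:**
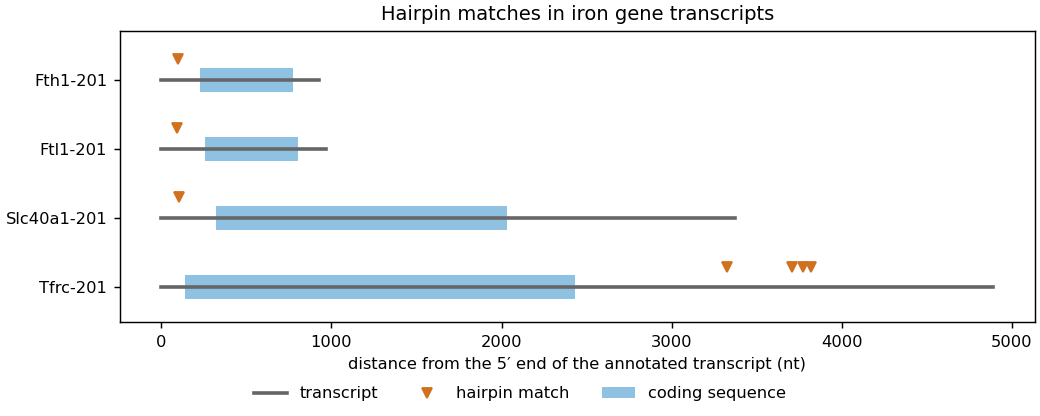
Position of the hairpin matches (triangles) along the leading annotated transcript of 4 iron genes, in nt from the 5′ end, with the coding sequence as a box. Fth1, Ftl1 and Slc40a1 have 1 match each before the coding sequence, and Tfrc has 4 after it.

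The ferritin genes stood far above the other 7 genes. Levels are given as TPM, transcript abundance scaled for length to a fixed total per library. The order by mean TPM was Ftl1, Fth1, Aco1, Tfrc, Slc11a2, Ireb2, Trf, Cp and Slc40a1. All 9 reached the detection minimum of 1 TPM in both libraries, against 54.6% of 21461 nuclear protein-coding genes, and their median level was 8.03 TPM against 8.11 TPM for all detected coding genes. TPM was lower in replicate 2 for 8 of the 9 genes. The share of all coding genes lower in replicate 2 was not computed, for TPM or for the rescaled TPM below. Neither count is therefore read as a trait of the 9 genes. The share of TPM on protein-coding genes was 28.1% in replicate 1 and 19.3% in replicate 2, and when TPM was rescaled to coding genes alone, 4 of the 9 were lower in replicate 2. For that reason, levels of 2 genes were compared by their ratio within each library, and called apart where both ratios pointed the same way and the mean log2 ratio was over 3 times its SD. By that rule 2 of the 8 neighbouring pairs in the order were apart, Ftl1 over Fth1 and Fth1 over Aco1.

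**Figure D2:**
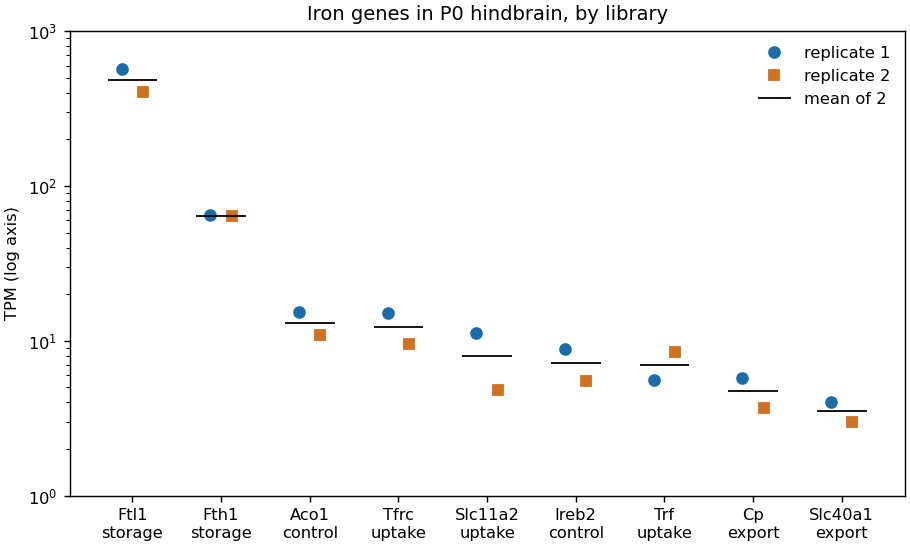
TPM of the 9 iron genes (log axis) in replicates 1 and 2 of newborn hindbrain, ordered by the mean of both libraries (line) and labelled with each gene's role. Ftl1 and Fth1 lie above 60 TPM in both libraries and the other 7 below 16 TPM.

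Ftl1 encodes the ferritin light chain, which helps the mineral core form in the storage shell. The gene (ENSMUSG00000050708, chr7:45457944-45459884, minus strand) had 566 TPM in replicate 1 and 406 TPM in replicate 2, a mean of 486 ± 114 TPM (SD, n = 2). It ranked 31 of 21461 coding genes, with 29503 and 44173 counts. Fth1 encodes the heavy chain, the subunit that oxidises iron on entry (ENSMUSG00000024661, chr19:9980598-9985098, plus strand). It had 64.8 and 63.7 TPM, a mean of 64.3 ± 0.78 TPM (SD, n = 2), and ranked 536. Ftl1 exceeded Fth1 in both libraries, 8.74 times in replicate 1 and 6.37 times in replicate 2 (mean log2 ratio of TPM 2.90 ± 0.32, SD).

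Ferritin has near-identical copies, so its counts depend on how shared reads were divided. Among 13 other genes whose symbol starts with Fth or Ftl, 10 had no counts in either library, the Fthl17 genes among them. Ftl1-ps1, a copy of Ftl1, was listed at 31.4 and 37.1 TPM (1563 and 3841 counts). Ftl2-ps had 5.82 and 46.3 counts, and Fth-ps2 had 2 and 22 counts. The 7 genes with a transcript at least 90% identical to Ftl1 over 200 nt or more together held counts equal to 5.32% and 8.81% of those of Ftl1. Added to Ftl1, with an overlapping miRNA gene at 0, they gave 598 and 444 TPM, still the highest level of the 9 genes. For Fth1 the single such gene, Gm6977, had 0 counts.

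Among the uptake genes the receptor had the highest mean TPM. Tfrc encodes transferrin receptor 1 (ENSMUSG00000022797, chr16:32608920-32632794, plus strand), and had 15.1 TPM in replicate 1 and 9.48 TPM in replicate 2, a mean of 12.3 ± 3.97 TPM (SD, n = 2) from 4699 and 5348 counts. It ranked 4084 among coding genes. Slc11a2 encodes the divalent metal transporter DMT1 (ENSMUSG00000023030, chr15:100387898-100425072, minus strand), with 11.2 and 4.84 TPM and a mean of 8.03 ± 4.51 TPM. Part of the gap between its libraries lay on 1 short transcript. Over transcripts with an effective length of at least 300 nt, the stretch of start positions open to a fragment, Slc11a2 had 7.76 and 4.84 TPM, a mean of 6.30 ± 2.06 TPM. On that scale Tfrc exceeded Slc11a2 by 1.84 and 1.67 times (log2 0.81 ± 0.10), and the pair were apart, while over all transcripts the ratios of 1.34 and 1.96 were not (log2 0.70 ± 0.38).

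Trf encodes transferrin itself, the carrier (ENSMUSG00000032554, chr9:103204001-103230444, minus strand). It was the one gene with a higher TPM in replicate 2, at 5.59 TPM in replicate 1 and 8.40 TPM in replicate 2 (992 and 2138 counts). Over the longer transcripts alone its level was 5.58 and 5.73 TPM. Tfrc exceeded Trf by 2.70 times in replicate 1 but 1.13 times in replicate 2, so receptor and carrier were not told apart.

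By mean TPM the export genes were the last of the order, though Cp was not told apart from Trf (ratios of Trf over Cp 0.969 and 2.30). Slc40a1 encodes ferroportin, the iron exporter of the cell membrane (ENSMUSG00000025993, chr1:45908068-45926523, minus strand). It had 4.02 and 3.00 TPM, a mean of 3.51 ± 0.72 TPM (SD, n = 2), from 1012 and 1517 counts, and ranked 9176. The deposited posterior mean TPM was higher, 10.2 and 4.97, and 56.29% and 35.04% of it was placed on Slc40a1-207, a 263-nt transcript with 0 counts and effective lengths of 2.1 and 3.46 nt. Cp encodes ceruloplasmin, a copper ferroxidase that works with ferroportin (ENSMUSG00000003617, chr3:19957054-20009145, plus strand). Its level was 5.77 and 3.66 TPM, a mean of 4.72 ± 1.49 TPM (999 and 1571 counts). Cp exceeded Slc40a1 by 1.44 and 1.22 times (log2 0.40 ± 0.17). That was past 2 SD but short of the 3 SD of the rule used here, so the pair was not called apart. By posterior mean TPM the order turned, with Cp at 0.592 and 0.777 times Slc40a1. The receptor Tfrc exceeded the exporter Slc40a1 by 3.75 and 3.16 times (log2 1.78 ± 0.18), and these were apart, but by posterior mean TPM the ratios were 1.47 and 1.91 (log2 0.74 ± 0.27) and the call was lost. Cp overlaps Hps3 on the other strand (1251 and 1496 counts), and whether strand was used in counting is not stated.

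Both control genes were expressed, Aco1 above Ireb2. Aco1 encodes cytosolic aconitase, which acts as iron regulatory protein 1 when it lacks its iron-sulfur cluster (ENSMUSG00000028405, chr4:40143081-40198338, plus strand), and had 15.3 and 10.9 TPM, a mean of 13.1 ± 3.07 TPM (SD, n = 2; 4310 and 5989 counts). Ireb2 encodes iron regulatory protein 2, whose level is set by its degradation when iron is plentiful (ENSMUSG00000032293, chr9:54863789-54912530, plus strand), and had 8.83 and 5.48 TPM, a mean of 7.16 ± 2.37 TPM (3975 and 4995 counts). The Aco1 over Ireb2 ratio was 1.73 and 1.99 (log2 0.89 ± 0.15), so these were apart. Aco1 was not told apart from Tfrc, its neighbour in the order (ratios 1.01 and 1.15). Nor was Ireb2 from Trf, where the ratio was 1.58 in replicate 1 and 0.652 in replicate 2.

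To see how far the libraries agreed on each gene, counts were scaled by TMM and expressed as a log2 ratio of replicate 2 over replicate 1. The median of the 9 ratios was 0.07, against 0.01 over all 17632 genes whose mean count reached 10. Past 1.5-fold lay 1 of the 9, Trf, against 24.6% of those genes, 6.65% of detected coding genes and 4.58% of the 10918 genes whose mean count reached 500, as it did for all 9 genes. The share of all 17632 genes past 1.5-fold was 14.7% upward and 9.88% downward in replicate 2. Counting error was 0.476% to 3.18% of each gene's count and covers counting alone, since reads carry no molecular identifiers.

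Trf had a log2 ratio of 0.60 (counting SE 0.06), a fold of 1.51. Gm20425, an overlapping coding gene on the same strand, had 242 counts in replicate 1 and 87.4 in replicate 2. These equal 24.3% and 4.09% of the counts of Trf. Summed with Gm20425, Trf had 1234 and 2225 counts, and the ratio was 0.34, a fold of 1.27, so the call was lost. This sum was chosen after seeing the data, and how the division of reads between the 2 genes bears on the Trf ratio was not tested. Fth1 followed with 0.53 (SE 0.03), a fold of 1.44, and then Cp with 0.14 (SE 0.06). Ftl1, Slc40a1, Slc11a2 and Aco1 lay between -0.03 and 0.07, with Aco1 at 0.07 in place of -0.03 when scaled by spike-in totals. Ireb2 (-0.18, SE 0.03) and Tfrc (-0.32, SE 0.03, a fold of 0.80) were the low end. Trf and Fth1 were the 2 genes outside the range that holds the 5th to 95th percentile of genes whose mean count reached 500 (-0.41 to 0.47).

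**Figure D3:**
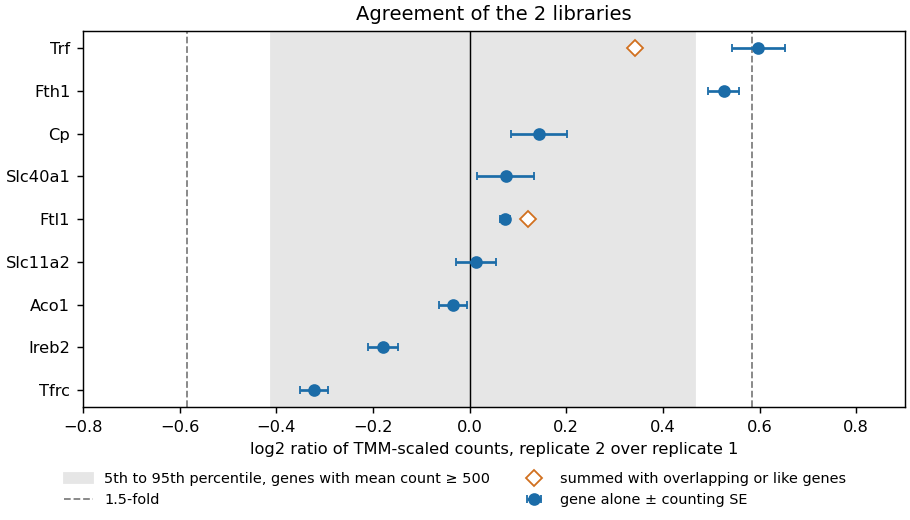
Log2 ratio of TMM-scaled counts, replicate 2 over replicate 1, for the 9 iron genes (circles, with the counting SE) and for Trf and Ftl1 summed with overlapping or like genes (diamonds). Trf and Fth1 lie right of the grey band (5th to 95th percentile of genes whose mean count reached 500), and Trf summed with Gm20425 lies inside it.

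Markers of several cell types moved between the libraries too. The tissue label fitted its markers, with 8 of 8 hindbrain genes detected (summed 151 and 117 TPM) and 1 of 6 forebrain genes, Neurod6 (list sum 8.61 and 4.87 TPM, Dlx5 at 0). Of 8 choroid plexus genes 6 were detected, with summed levels of 351 and 370 TPM and a median log2 ratio of 0.35, with 6 of 8 ratios above 0 (Kl and Prlr, at -0.34 and -0.41, were below). Of 8 oligodendrocyte genes 6 were detected, with sums of 108 and 99.0 TPM, and all 7 with enough counts had ratios above 0 (median 0.37), while Opalin was at 0 in both libraries and Mog at 0 in replicate 1. Of 8 erythroid genes 5 were detected, with sums of 938 and 854 TPM, all 7 ratios above 0 (median 0.65) and Hemgn at 0. Microglial genes (6 of 8 detected) had a median ratio of 0.15, and endothelial genes (6 of 6) one of -0.13. Astrocyte genes (5 of 5) stood at 0.00, neuronal genes (4 of 4) at -0.12 and oligodendrocyte precursor genes (5 of 5) at -0.10. None of 4 liver genes was detected. The median shifts of choroid plexus, oligodendrocyte, erythroid and microglial genes were above 0, against a median of 0.01 over all 17632 genes. So were the ratios of 6 of the 9 iron genes, Trf and Fth1 the highest. The share of all genes above 0 was not computed. The part of these cell types in the ratios of the iron genes was not tested. In bulk RNA, more cells of a type and more RNA per cell cannot be told apart.

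The transcript tables show which messages made up these levels. All 7 genes with more than 1 transcript in the tables had the same leading transcript in both libraries, against 80.9% of 8677 detected coding genes by share of TPM and 88.2% by share of counts. Ftl1-201, the light chain message with the hairpin, made up 90.9% of Ftl1 TPM in replicate 1 and 84.5% in replicate 2. The remainder was on 4 transcripts with no match by identifier in GENCODE M21, which has Ftl1 transcripts of the same lengths under other identifiers. One of them, ENSMUST00000135869 of 943 nt, had 67.6 counts in replicate 1 and 3866 in replicate 2, or 0.23% and 8.90% of Ftl1 TPM. It has the length of Ftl1-202, which holds the hairpin in GENCODE M21, so the hairpin share of Ftl1 given below, which leaves it out, may be too low, more so in replicate 2. Fth1 and Ireb2 each had 1 transcript in the tables. For Aco1, Aco1-201 made up 97.9% and 93.3% of TPM. Slc40a1-201 made up 95.9% and 96.4% of ferroportin TPM.

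The level of the receptor gene was divided between transcripts annotated as coding and as retained intron. Whether reads placed on the latter came from spliced messages or from unspliced RNA was not tested. Tfrc-201, the full-length coding transcript, made up 65.0% of TPM in replicate 1 and 54.4% in replicate 2. Retained-intron transcripts together took 27.0% and 40.5% of Tfrc TPM, or 18.5% and 24.5% of its counts. Over the 8677 genes the mean was 7.23% and 8.17% of TPM and the median 0% and 0.02%. Genes with no annotated retained-intron transcript enter these values as 0, so they are not a like-for-like background for Tfrc, which has such transcripts. Tfrc-204, of 3527 nt, was the main one, with 21.4% and 24.4%, and it carries all 4 hairpins. The short Tfrc-205 had 5.30% and 14.7%, from 16.9 and 63.3 counts.

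Short transcripts shaped the shares of Slc11a2, Trf and Cp. Slc11a2-205, the 4415-nt transcript, held 82.6% and 84.6% of the gene's counts but 44.3% and 74.5% of its TPM. In replicate 1, 30.9% of the TPM was on Slc11a2-204, a 393-nt nonsense-mediated decay transcript with 22.6 counts and an effective length of 79.6 nt, which had 0 counts in replicate 2. The second long form, Slc11a2-201 of 3025 nt, made up 11.1% and 19.5% of TPM, and Slc11a2-203 made up 13.7% and 6.03%. Trf-201 held 88.3% and 78.6% of counts, and 84.8% and 53.2% of TPM. The 563-nt Trf-206 had 0 counts in replicate 1 and 118 in replicate 2, where it took 31.8% of TPM, and Trf-203 made up 11.71% and 10.98%.

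Ceruloplasmin had the most divided message, with 16 transcripts, 7 of them at 5% or more in a library. Cp-201 led with 26.1% and 30.3% of TPM (46.7% and 44.3% of counts), ahead of the coding Cp-202 at 15.1% and 15.8% and Cp-205 at 7.01% and 7.27%. By TPM, transcripts annotated as retained intron made up 51.8% and 42.9% of Cp, but by counts they made up 12.7% and 19.2%. As for Tfrc, whether these reads came from spliced messages was not tested. Cp-216 had 24.5% and 15.8% of TPM, Cp-210 had 22.3% and 0%, Cp-209 had 4.41% and 19.1%, and Cp-211 had 0.6% and 5.72%. Among the transcripts of Cp the largest change in share between libraries was 22.3 points by TPM and 7.11 points by counts, against medians of 11.7 and 6.94 points over the 8677 genes.

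**Figure D4:**
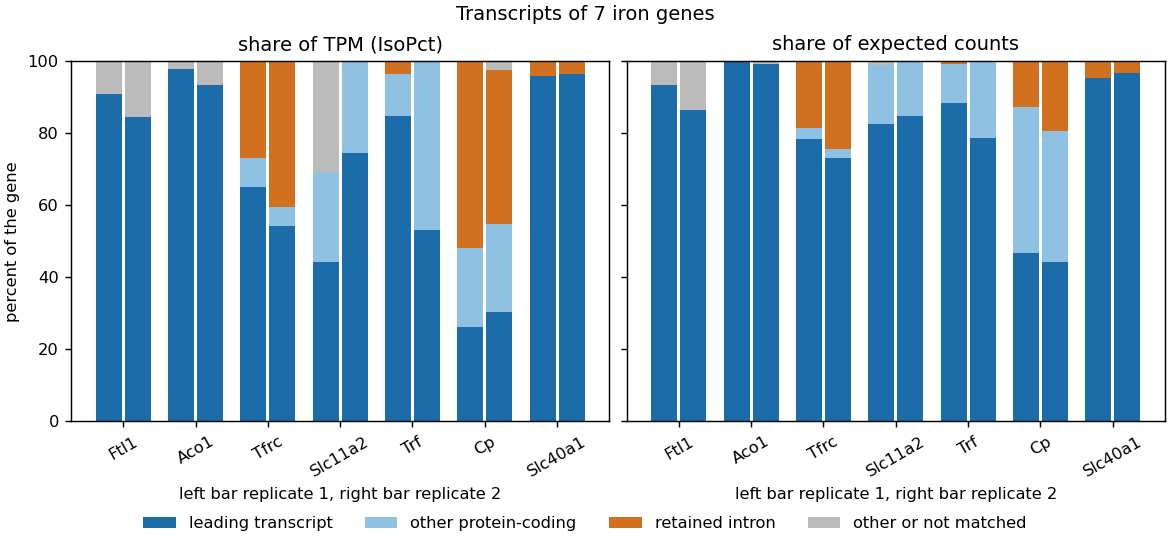
Share of each gene's TPM (left) and of its expected counts (right), in percent, held by the leading transcript, other coding transcripts, retained-intron transcripts and the remainder, for the 7 iron genes with more than 1 transcript. Left bars are replicate 1 and right bars replicate 2, and Slc11a2, Trf and Cp differ most between the panels.

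By the deposited TPM, most of the output of the 4 genes with a hairpin match was in transcripts that hold the hairpin printed above. For Fth1 this was fixed in advance, since its 1 listed transcript holds the match. The share of TPM on such transcripts was 100% in both libraries for Fth1, 90.9% and 84.5% for Ftl1, 100% and 100% for Slc40a1, and 86.5% and 78.8% for Tfrc (96.4% and 96.3% of its counts). A motif transcript in the tables was present for 86 of 11725 detected coding genes (0.733%). By posterior means the Slc40a1 share was 38.9% in replicate 1 and 60.2% in replicate 2, so for this gene the majority on hairpin transcripts did not hold in replicate 1.

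Around these genes, 32 of 47 other genes of iron and haem handling were detected in both libraries (68.1%, against 54.6% of all coding genes). All 5 genes of iron chaperoning and ferritin turnover were detected. Ncoa4, the receptor that delivers ferritin to the lysosome, had 47.8 and 32.2 TPM. Fbxl5, the iron sensor that targets iron regulatory protein 2 for degradation, had 24.4 and 19.1 TPM, above Ireb2 in both libraries. The iron chaperones Pcbp1 and Pcbp2 had 15.9 ± 5.72 and 11.7 ± 3.08 TPM.

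Of 8 mitochondrial iron and cluster genes 7 were detected, with Glrx5 at 19.8 ± 3.85 TPM and the cluster scaffold Iscu at 14.9 and 14.9 TPM. The exception was Ftmt, mitochondrial ferritin, listed at 0 in both libraries, for which a floor of 3 counts is 0.0322 and 0.0157 TPM. Of 11 haem genes 9 were detected. Alas1, the first enzyme of haem synthesis in most tissues, had 14.7 and 14.2 TPM, and the constitutive haem oxygenase Hmox2 (9.20 ± 3.27 TPM) had a higher mean than the inducible Hmox1 (3.25 ± 1.41 TPM).

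Genes of body-wide iron control were mostly low, with 3 of 9 detected. Hamp and Hamp2, which encode the hormone hepcidin and its relative, were listed at 0 in both libraries, and a floor of 3 counts is 0.466 and 0.188 TPM for Hamp. Tfr2, the second transferrin receptor, was at 1.98 and 0.94 TPM and so just missed the minimum, and Neo1, a co-receptor with roles outside iron, was at 27.7 ± 9.20 TPM. Among other uptake routes 4 of 7 genes were detected, led by the lipocalin-2 receptor Slc22a17 at 138 and 93.3 TPM, whose ligand gene Lcn2 was not detected. The zinc and iron transporters Slc39a14 and Slc39a8 had 7.88 ± 2.11 and 5.27 ± 1.39 TPM. Of 7 reductases and oxidases 4 were detected, with the metalloreductase Steap2 at 5.11 ± 2.13 TPM and Heph, the membrane relative of ceruloplasmin, at 1.67 ± 0.26 TPM against 4.72 TPM for Cp. Of the 42 listed genes with enough counts, 11 lay past 1.5-fold between the libraries, 6 upward and 5 downward in replicate 2, with a median log2 ratio of -0.02. That share, 26.2%, was near the 24.6% of all 17632 genes.

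**Figure D5:**
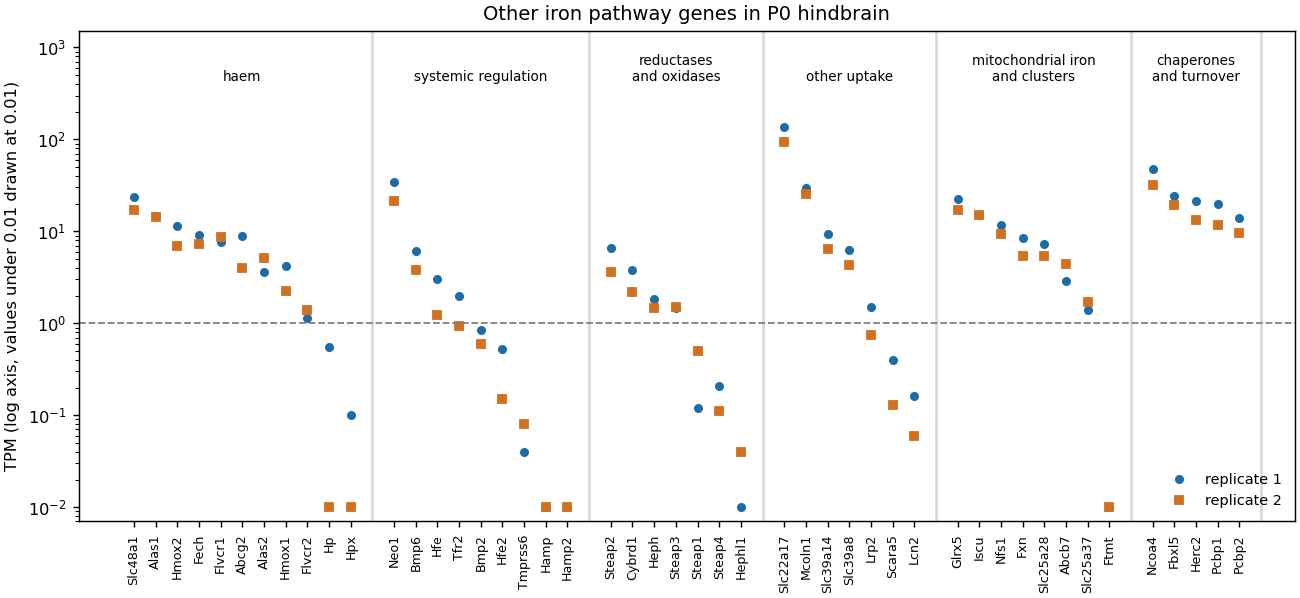
TPM (log axis, values under 0.01 drawn at 0.01) of 47 other iron and haem genes in replicates 1 and 2, grouped by role, with the detection minimum of 1 TPM dashed. Chaperone and turnover genes all lie above the line in both libraries, and Hamp, Hamp2 and Ftmt lie at the floor of the plot.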

How the data were processed

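For each of 2 libraries the authors deposited a gene table and a transcript table, made on mm10 with GENCODE M4 per the submitters' notes among the files. Aligner, quantifier and the use of strand in counting were not given in the sources used here. Expected counts, as the authors deposited them, are estimates of fragments with shared reads divided (7 of the 9 genes have whole counts, within 0.005), and TPM is scaled for effective length. The deposited percent column (IsoPct) is the part of a gene's TPM on each transcript. The authors also deposited signal-type columns (effective lengths and interval bounds), and the level of the intervals is not stated.

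The members and lists were chosen with earlier results of these data known. All 9 members, their transcripts at 5% or more, ferritin copies and listed pathway genes may be named. GENCODE M21 gave symbols for 42462 of 43346 genes (98.0%), coordinates and transcript sequences. Its lengths differ from the tables for Fth1-201 (929 against 866 nt) and Ireb2-201 (5770 against 5808 nt). Of 48 pathway names 47 were matched. Counts on mouse genes were 53617723 and 76299141, spike-ins (472691 and 627433) stayed out of ratios, and mean fragments 314.9 and 296.6 nt.

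Expected counts were rounded and scaled by TMM in edgeR 4.0.16 (R 4.3.3), with a prior count of 2, as log2 ratios. The script was tested on simulated data. Like transcripts were found with blastn 2.17.0. Samples of this design allow no test between groups, and p-values are not given. Alternatives were DESeq2 1.42.0 size factors, total counts, spike-in totals, a prior of 0.5, no filter, posterior means, coding-only TPM, other thresholds, and each replicate left out, with 3 more added after seeing the data (longer transcripts, shares of counts, and sums with overlapping or like genes).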

Additional observations from a re-analysis of the deposited data

How the results depend on the processing

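No paired analysis was possible because the series has 1 group. All 9 genes were detected with either replicate left out (9 to 9), and 4 to 4 genes had most of their TPM on hairpin transcripts. Neither count could change, since both calls already held in each library alone, so this is no check of robustness. Past 1.5-fold lay 1 gene as reported, 2 under spike-in totals (Trf 0.70 and Fth1 0.63), where the median of all genes also moved to 0.11, and 0 after summing with overlapping or like genes, a setting chosen after seeing the data. The share of all genes past 1.5-fold was computed for TMM scaling alone, so the other counts have no background beside them. Of the neighbouring pairs, 2 were apart as reported, 3 by posterior mean TPM, and 3 at a cutoff of 2 SD, which adds Cp over Slc40a1. Over transcripts of at least 300 nt effective length, also chosen after seeing the data, 4 were apart, with Ireb2 then above Slc11a2. Why the numbers of genes and pairs moved under these alternatives was not tested. A minimum of 5 TPM left 6 genes detected. From posterior means, 6 of 7 genes had the same leading transcript and 3 genes had most of their TPM on hairpin transcripts, Slc40a1 being the exception at 38.9% and 60.2%. Spike-in totals raised all 9 ratios and took Aco1 past 0, while DESeq2 size factors, total counts, posterior means, the prior count and the filter left all 9 within counting error. Of the 9 levels, posterior means moved 1 beyond its SD (Slc40a1, to 7.60 TPM), and rescaling to coding genes moved all 9. Leaving out a replicate gives no ratio and no SD. Counting error was at most 3.18% per gene, while shares of single transcripts can rest on fewer than 50 counts.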

Other observations

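Among the 82 other detected coding genes with a hairpin match in a transcript of the tables, 53 had at least 50% of their TPM on such transcripts in both libraries. The genes named here were chosen after their values were seen. Alas2, the erythroid enzyme of haem synthesis, had a mean of 4.37 ± 1.01 TPM, with 43.3% and 14.1% on hairpin transcripts. Matches also stood in genes with no listed role in iron handling, such as Trim35 (77.1 ± 22.3 TPM, 98.9% and 98.9%), Wdr1 (53.3 ± 18.1 TPM, 100% and 100%) and Rab6b (51.1 ± 15.5 TPM, 100% and 100%). The motif search alone does not tell whether a match is bound.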
